A study of Mus musculus with 6 samples.

Results

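The 38 genes described here encode the core of the actin cytoskeleton: the 2 cytoplasmic actins, the 9 subunits of the Arp2/3 complex, and 27 proteins that bind, elongate, sever, cap, crosslink or anchor actin filaments. They are a list of names with no threshold on any measured value, and all 38 were found among the 24940 genes of the expression table. RNA was sequenced from bone marrow-derived macrophages (BMMs) of mice, which serve as osteoclast precursors, in 3 conditions with 2 libraries each. Over 3 days, M-CSF at 30 ng/mL was given to all cultures, alone in the no RANKL group (-R), with RANKL at 100 ng/mL in the RANKL group (+R), and with RANKL and leaf extract (LE) of *Abeliophyllum distichum* at 10 μg/mL in the R+LE group. M-CSF was therefore common to all groups, and no group received LE without RANKL. The sample labels give C57BL/6 mice of 6 to 8 weeks, whereas the methods of the study name ICR mice. Nothing states whether the 2 libraries of a group came from separate cultures or animals, so p-values measure only the spread between these libraries, which may be technical.

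Actin is a small globular protein that assembles into filaments, and these filaments are built, branched, cut and tied together by sets of partner proteins. The Arp2/3 complex starts a new filament on the side of an existing one, Ena/VASP proteins elongate filaments, profilin and thymosin β4 hold monomers, cofilins disassemble filaments, and capping proteins stop their growth. In osteoclasts, which differentiate from macrophage precursors under RANKL, filaments form podosomes and the sealing zone, an actin-rich ring by which the cell attaches to bone. *Actb* is also widely used as a reference gene for quantitative PCR.

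The libraries held 29.4 to 34.8 × 1000000 mapped reads, of which 74.2% to 80.7% lay on genes. Each of the 38 genes passed the filter of a mean of 0.5 RPKM (reads per kilobase of transcript per 1000000 mapped reads), which left 11595 genes to test. Of the 38, 37 had at least 100 reads in every library, and the lowest value was 42 reads, for *Fscn1*. All 6 macrophage markers were detected, and 5 of them were lower in +R than in -R, whereas all 7 osteoclast markers were higher. In R+LE against +R all 7 osteoclast markers fell by over 2-fold, and their summed RPKM was 40.2 and 41.2 for -R, 1947 and 1718 for +R, and 343 and 301 for R+LE. The summed RPKM of 7 neutrophil markers was 17.2 and 15.3 in -R and 0.564 to 2.53 in the other libraries, and that of 3 megakaryocyte markers was 119 and 124 in -R and 6.00 to 18.3 elsewhere. The megakaryocyte sum came almost wholly from *Pf4*, with a mean of 121 RPKM in -R, while *Itga2b* and *Gp9* had means below 0.5 RPKM. Only 2 of the 7 neutrophil markers reached a mean of 0.5 RPKM, with *Ly6g*, *Elane*, *Mpo*, *Ltf* and *Camp* below it, and *Cd3e*, *Hba-a1* and *Hbb-bs* were listed at 0 in all libraries. Of 9 stromal and smooth muscle markers, 5 reached a mean of 0.5 RPKM. The sum of the 9 was 16.6 to 23.8 RPKM over all libraries. In R+LE against +R, *Acta2* and *Tagln* rose and *Col1a2* and *Col3a1* fell. Of 3 endothelial markers, only *Kdr* reached a mean of 0.5 RPKM. *Kdr* fell by over 2-fold in R+LE against +R, from a mean of 1.92 to 0.551 RPKM. Of 4 osteoblast markers, only *Runx2* reached 0.5 RPKM, and it was lower in +R than in -R. The 45S ribosomal RNA precursor *Rn45s* took 4.97% and 6.83% of reads on genes in -R and 10.9% to 13.5% in the others. The macrophage, osteoclast, neutrophil and megakaryocyte markers moved with the groups. The part that these or the stromal, endothelial and osteoblast markers had in the results below was not tested. *Rn45s* also moved with the groups, and calls that were lost when it was left out of the depth are given with their genes. In bulk RNA, fewer cells of a type and less RNA per cell cannot be told apart.

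Many of the core genes were among the more abundant transcripts, but not all of them. By mean RPKM, *Vcl*, *Evl*, *Ezr* and *Fscn1* ranked 3699, 2089, 2064 and 10990 among all genes. The share of all gene reads held by the 38 genes was 3.45% and 3.23% for the -R libraries. It was 2.67% and 2.51% for +R and 2.76% and 2.55% for R+LE. Both -R libraries lay above all 4 libraries that received RANKL. The gene reads included those of *Rn45s*, whose own share was higher in the RANKL-treated libraries, as given above. The part that *Rn45s*, or single abundant members such as *Actb* and *Tmsb4x*, had in this difference was not tested. Because RPKM is scaled to transcript length, levels can be set side by side between genes. *Tmsb4x*, *Actb*, *Actg1*, *Cfl1* and *Pfn1* had the highest means of the 38, and *Tmsb4x* and *Actb* ranked 7 and 8 among all genes. At the low end, *Cfl2*, the muscle-type cofilin, had a mean of 3.88 RPKM, and *Fscn1*, which encodes the filopodial bundling protein fascin, had a mean of 0.798 RPKM.

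**Figure D1:**
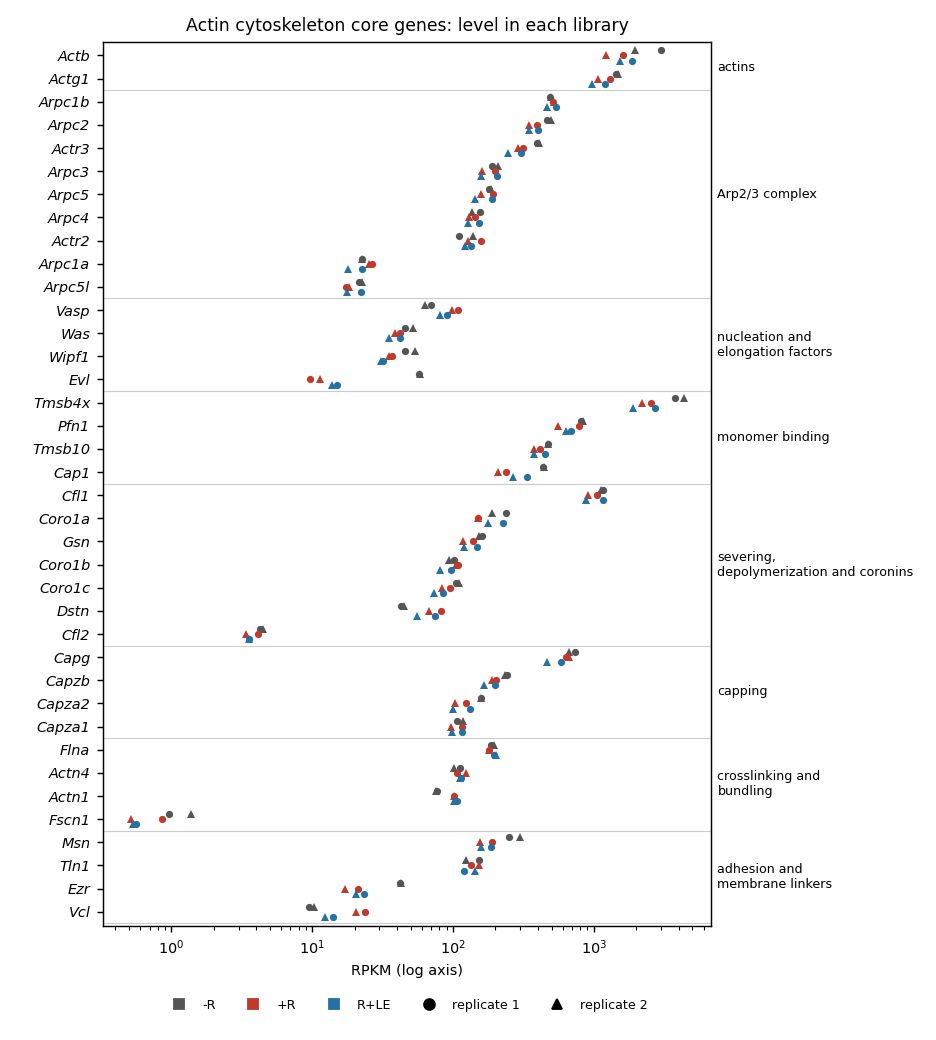
Level of each of the 38 core genes in RPKM on a log axis, grouped by role, with grey, red and blue for -R, +R and R+LE, circles for replicate 1 and triangles for replicate 2. The 6 libraries lie close together for most genes, while *Evl* and *Ezr* are lower and *Vcl* is higher in both +R libraries than in both -R libraries.

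To ask how the core genes differed between conditions, log2(RPKM + 0.5) was compared with limma, and calls were made where the adjusted p was below 0.05. All adjusted p-values below are from limma with Benjamini-Hochberg adjustment over 11595 genes, and fold changes are on the log2(RPKM + 0.5) scale with their SE. In +R against -R, 4 of 38 core genes rose, against 23.9% of all genes tested, and 9 fell, against 21.5% of all genes. With a further threshold of 2-fold, 1 rose (*Vcl*), against 6.58% of all genes, and 2 fell (*Evl* and *Ezr*), against 8.92%. The median log2 fold change was -0.26 over the 38 genes and 0.045 over all genes tested. Of the 38 values, 28 lay below 0, against 46.7% of all genes tested. The 38 values come from the same libraries, so they are not independent of each other. The number that fell depended on the scaling. It was 16 under trimmed mean scaling, against 24.6% of all genes, and 18 under quantile normalization, against 22.8%.

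In R+LE against +R, which tests the extract, 1 of 38 core genes fell, *Vcl*, against 6.86% of all genes, and 0 rose, against 5.19%. No core gene passed 2-fold in either direction, against 1.46% of all genes higher and 1.78% lower. At an unadjusted limma p below 0.05 there were 5 of the 38 genes. The share of all genes at that threshold was not computed, so this count is not set against it. Several other ways of scaling called *Evl* and some called *Cap1*, as given with those genes. The median log2 fold change was -0.038 over the 38 genes and -0.047 over all genes. In R+LE against -R, 3 core genes rose, against 15.3% of all genes, and 9 fell, against 19% of all genes. The number that fell was 16 under quantile normalization (18.4% of all genes), 14 under trimmed mean scaling (19.7%) and 14 with voom on recovered reads (20.9%). With 2-fold, 0 rose, against 3.92%, and 1 fell (*Evl*), against 6.36%. The comparisons share libraries, so their calls are not independent of each other. Without the filter on low values, which raised the genes tested to 18427, the calls of *Actb*, *Capza2*, *Coro1a* and *Tmsb4x* in +R against -R were lost, as were those of *Actr3*, *Cap1*, *Coro1c*, *Dstn*, *Fscn1*, *Tmsb4x* and *Vcl* in R+LE against -R. In all, 16 of the 38 genes were called in at least 1 comparison and 22 in none. The share of all genes called in at least 1 comparison was not computed. In +R against -R alone, 23.9% of all genes rose and 21.5% fell.

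**Figure D2:**
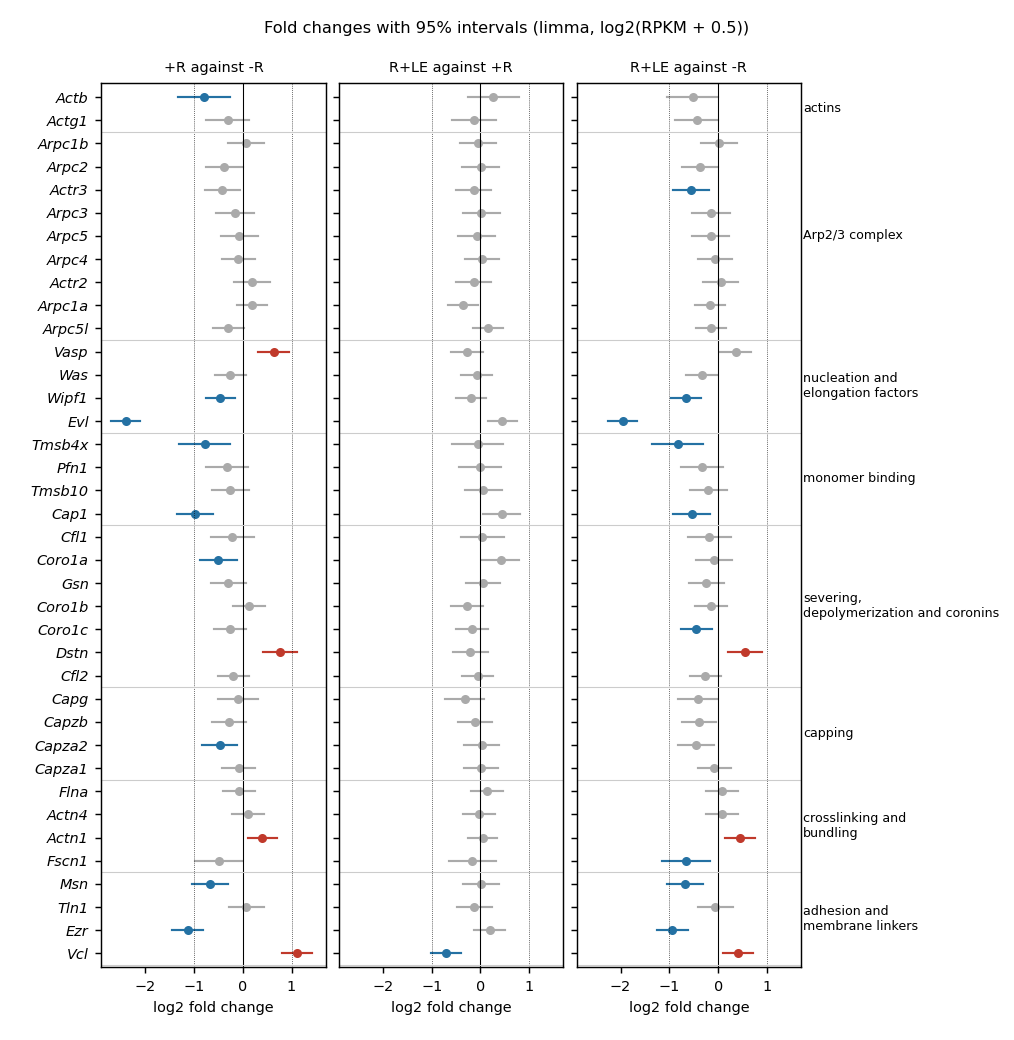
Log2 fold change of each core gene with its 95% interval in the 3 comparisons, with red for genes that rose, blue for genes that fell and grey for genes not called, and dotted lines at 2-fold. In R+LE against +R, the middle panel, *Vcl* is the one coloured gene.

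Of the 2 actins, *Actb*, which encodes β-actin, fell with RANKL, and *Actg1*, which encodes γ-actin, was not called. *Actb* (mm10 chr5:142903115-142906754, minus strand) measured 2969 and 1968 RPKM for -R, 1595 and 1225 for +R, and 1861 and 1519 for R+LE. The lowest -R library was above the highest +R and R+LE libraries, but the -R libraries differed from each other 1.51-fold. The log2 fold change of *Actb* was -0.79 ± 0.248 in +R against -R (adjusted p = 0.017), 0.27 ± 0.248 in R+LE against +R (adjusted p = 0.611, 95% interval -0.26 to 0.80) and -0.52 ± 0.248 in R+LE against -R (adjusted p = 0.119). Its fall with RANKL lost the call without -R replicate 1 (-0.49, adjusted p = 0.319) and without +R replicate 2 (-0.60, adjusted p = 0.181), while R+LE against -R gained one without R+LE replicate 1 (-0.67, adjusted p = 0.0356), with the replicate number as a block (adjusted p = 0.0334) and with voom (-0.53, adjusted p = 0.0192).

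*Actg1* measured 1442 and 1480 RPKM for -R, 1305 and 1066 for +R, and 1189 and 974 for R+LE. The -R libraries were the highest, but the difference did not pass the test in any comparison, and its log2 fold change in +R against -R was -0.31 ± 0.208 (adjusted p = 0.245). About 51.1% of the 100-base windows of the *Actg1* transcript also occur in transcripts of other genes, mainly the pseudogene *Gm12715*, so its counts are uncertain. The ratio of *Actb* to *Actg1* was 2.06 and 1.33 for -R, 1.22 and 1.15 for +R, and 1.56 for both R+LE libraries. The ratio in the 2 -R libraries enclosed that of R+LE, and +R was lowest.

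Because *Actb* is a common reference gene, it was also set against 16 other genes used for that purpose. On the log2 scale *Actb* lay above their mean by 4.23 and 3.57 for -R, 3.02 and 2.80 for +R, and 3.33 and 3.24 for R+LE. The 2 -R libraries were the highest by this measure, too. The reference genes were not constant, since 5 of the 16 rose and 2 fell in +R against -R. *Ppia*, which encodes cyclophilin A, rose by 0.70 ± 0.204 (adjusted p = 0.0111), whereas *Gapdh* (0.26 ± 0.206, adjusted p = 0.325) and *Hprt* (-0.16 ± 0.169, adjusted p = 0.468) were not called.

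The RefSeq promoter window of *Actg1* (250 bases before to 50 after the start, GRCm38.p6, chr11:120348446-120348745, minus strand) is shown because it holds a CArG box, the motif bound by serum response factor, which is known to drive many actin genes. The capitals mark the box, which starts at position -90 from the start site.
Actg1: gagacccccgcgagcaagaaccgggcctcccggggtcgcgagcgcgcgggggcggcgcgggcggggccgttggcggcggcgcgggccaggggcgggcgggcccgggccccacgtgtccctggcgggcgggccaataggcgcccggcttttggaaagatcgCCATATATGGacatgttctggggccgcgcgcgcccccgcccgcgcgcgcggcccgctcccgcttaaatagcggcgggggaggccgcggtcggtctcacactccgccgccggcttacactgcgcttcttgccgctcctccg
Of the 38 genes, 32 had a window at the start of the counted transcript. *Actb*, *Arpc5l*, *Capg*, *Capzb*, *Coro1b* and *Evl* had none there, so their promoters were not searched. Both strands were searched, and 3 of the 32 held a CArG box (*Actg1*, *Arpc4* and *Vcl*), against 1.63% of the 32851 windows of all genes. Of these 3, *Vcl* rose with RANKL and *Actg1* and *Arpc4* were not called.

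**Figure D3:**
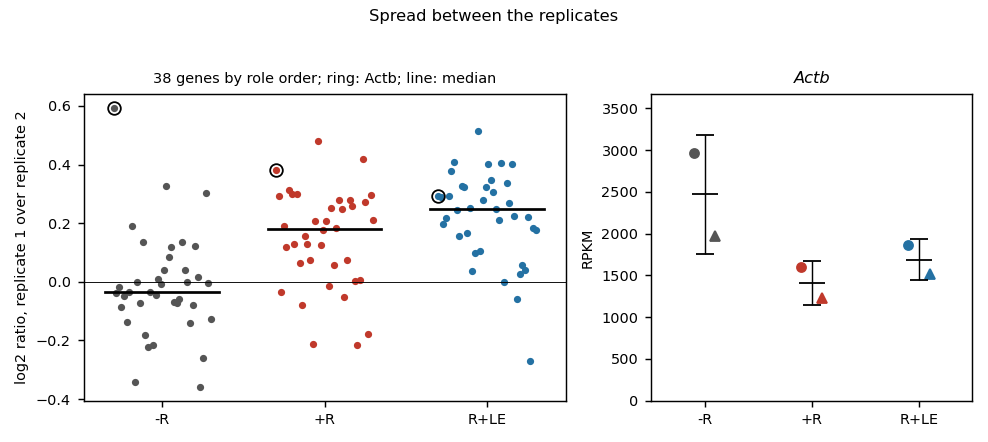
Left, log2 ratio of replicate 1 to replicate 2 for the 38 core genes in each group, with the median as a line and *Actb* ringed. Right, *Actb* in RPKM per library with mean and SD, where -R replicate 1 lies at 2969 and -R replicate 2 at 1968.

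The spread between replicates had a direction. Of the 38 genes, 36 were higher in replicate 1 of R+LE, with a median log2 ratio of 0.25, against 69.1% of all genes tested and a median of 0.13. In +R, 31 of 38 were higher in replicate 1, with a median of 0.18, against 65.3% of all genes and a median of 0.077. In -R the medians were -0.036 for the core genes and -0.046 for all genes. The 2 RANKL-treated groups thus held a library with generally higher core gene levels, and *Actb* was higher in replicate 1 in all 3 groups.

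The Arp2/3 complex was the largest set, and 0 of its 9 subunits were called by limma in +R against -R or in R+LE against +R. Of all genes, 23.9% rose and 21.5% fell in the first comparison, and 5.19% rose and 6.86% fell in the second. With shares this low in the second, 0 of 9 says little there. Unadjusted limma p-values below 0.05 were found for *Actr3* and *Arpc2* in the first comparison and *Arpc1a* in the second. Summed over the 9 genes, levels were 2035 and 2117 RPKM for -R, 1958 and 1779 for +R, and 1967 and 1645 for R+LE. The -R libraries were above the others by less than the distance between the R+LE libraries. Log2 fold changes ran from -0.42 to 0.19 with RANKL and from -0.35 to 0.15 with LE, and all 95% intervals lay between -0.79 and 0.56 in the first and between -0.67 and 0.46 in the second. *Actr3*, which encodes the actin-related subunit Arp3, fell in R+LE against -R (-0.56 ± 0.172, adjusted p = 0.0206). This call was lost without -R replicate 1 (-0.58, adjusted p = 0.141) and without -R replicate 2 (-0.54, adjusted p = 0.162), and 22.5% of its sequence windows are shared with other genes. *Actr2*, which encodes the partner subunit Arp2, had a log2 fold change of 0.05 ± 0.172 in the same comparison.

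The alternative subunits kept their order of abundance in all libraries. *Arpc1b*, the form typical of blood cells, exceeded *Arpc1a*, with a ratio of *Arpc1a* to *Arpc1b* between 0.0383 and 0.0515. *Arpc5* exceeded *Arpc5l*, with a ratio of *Arpc5l* to *Arpc5* between 0.0896 and 0.124. The absence of calls in +R against -R depended on the settings. *Actr3* was called lower there under trimmed mean scaling, quantile normalization, median centring, the replicate block, voom, no variance trend and a fit of the compared groups alone, and without either R+LE library. *Arpc2* was called under the 3 scalings, with the compared groups alone and without either R+LE library, *Arpc5l* under trimmed mean scaling, and *Arpc1b* under quantile normalization.

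Among the nucleation and elongation factors, the 2 Ena/VASP proteins went in opposite directions with RANKL. *Evl* (mm10 chr12:108635753-108688515, plus strand), which encodes the Ena/VASP-like protein, measured 56.9 and 58.4 RPKM for -R, 9.71 and 11.3 for +R, and 15.0 and 13.9 for R+LE. The 3 groups did not overlap, with -R highest and +R lowest. *Evl* had the largest fall of the 38 genes in +R against -R (-2.40 ± 0.139, adjusted p = 2.03e-09) and in R+LE against -R (-1.96 ± 0.139, adjusted p = 3.66e-08). With LE added to RANKL it had the highest value of the 38, 0.44 ± 0.139, which just missed the threshold (adjusted p = 0.0508). It passed under 7 of 18 alternatives, among them voom on recovered reads (0.46, adjusted p = 0.032) and trimmed mean scaling (0.50, adjusted p = 0.017). Reads were counted without strand, and 275 exonic bases of *Evl* overlap *Degs2* on the other strand, which also fell with RANKL (-2.26 ± 0.148, adjusted p = 8.82e-09) and rose with LE (0.48 ± 0.148, adjusted p = 0.0461). Reads on that overlap cannot be assigned to either gene.

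*Vasp*, which encodes the founding Ena/VASP protein, measured 69.6 and 63.4 RPKM for -R, 109 and 97.9 for +R, and 90.2 and 80.3 for R+LE. The groups did not overlap, and *Vasp* rose in +R against -R (0.63 ± 0.15, adjusted p = 0.00283). The call was lost without -R replicate 2 (0.57, adjusted p = 0.0586). The ratio of *Evl* to *Vasp* was 0.818 and 0.922 for -R, 0.089 and 0.116 for +R, and 0.166 and 0.173 for R+LE, and these ranges did not overlap. *Wipf1*, which encodes the WASP-interacting protein WIP, fell in +R against -R (-0.46 ± 0.142, adjusted p = 0.0149) and in R+LE against -R (-0.66 ± 0.142, adjusted p = 0.00212). The latter call was lost without -R replicate 2 (-0.54, adjusted p = 0.0537), and the call in +R against -R was lost without -R replicate 2, +R replicate 1 or +R replicate 2, at -0.35, -0.50 and -0.42. *Was*, which encodes WASP itself, was not called, with -0.26 ± 0.149 in +R against -R.

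**Figure D4:**
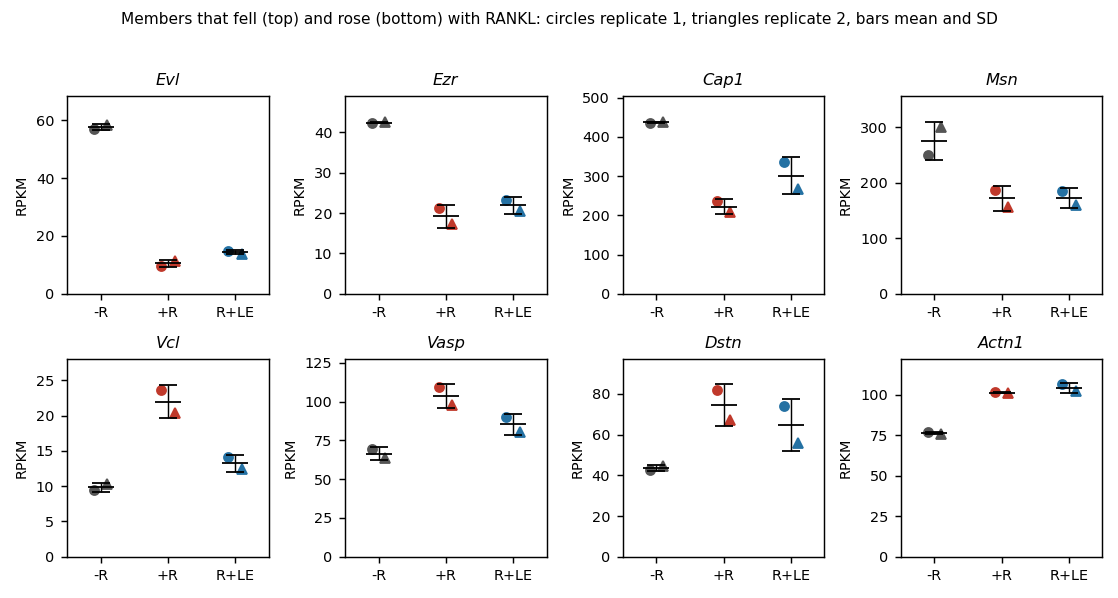
RPKM per library of 4 genes that fell (*Evl*, *Ezr*, *Cap1*, *Msn*) and 4 that rose (*Vcl*, *Vasp*, *Dstn*, *Actn1*) in +R against -R, with circles for replicate 1, triangles for replicate 2 and bars for mean and SD. In *Evl* and *Vcl* the R+LE libraries lie between those of -R and +R.

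Of the 4 genes for monomer-binding proteins, *Cap1* and *Tmsb4x* fell with RANKL, and *Pfn1* and *Tmsb10* were not called. *Cap1*, which encodes a cyclase-associated protein that recycles actin monomers, measured 437 and 439 RPKM for -R, 236 and 208 for +R, and 335 and 268 for R+LE. The R+LE libraries lay between the other groups. *Cap1* fell in +R against -R (-0.98 ± 0.175, adjusted p = 0.000306) and in R+LE against -R (-0.55 ± 0.175, adjusted p = 0.0247), and its difference in R+LE against +R was 0.43 ± 0.175 (adjusted p = 0.14). The call in R+LE against -R was lost without -R replicate 1 (-0.55, adjusted p = 0.169), without -R replicate 2 (-0.54, adjusted p = 0.161) and without R+LE replicate 2 (-0.39, adjusted p = 0.0523). With LE added, *Cap1* was called under centring on the median, trimmed mean scaling, quantile normalization and without R+LE replicate 2. Its exons overlap those of *Ppt1* on the other strand by 129 bases, and *Ppt1* also fell with RANKL (-1.07 ± 0.154, adjusted p = 4.07e-05).

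*Tmsb4x*, which encodes thymosin β4, measured 3739 and 4338 RPKM for -R, 2524 and 2185 for +R, and 2707 and 1897 for R+LE. Both -R libraries were above the rest, and the 2 R+LE libraries enclosed those of +R. The log2 fold change was -0.78 ± 0.245 in +R against -R (adjusted p = 0.0172) and -0.83 ± 0.245 in R+LE against -R (adjusted p = 0.0164). The first call was lost when any -R or +R library was left out (-0.67 to -0.88, adjusted p between 0.0605 and 0.212), the second without -R replicate 1 (-0.94, adjusted p = 0.124) or -R replicate 2 (-0.72, adjusted p = 0.213). Under quantile normalization the first value changed sign, to 0.14, and the second shrank to -0.22 and lost the call (adjusted p = 0.103). *Pfn1*, which encodes profilin, measured 812 and 838 RPKM for -R, 780 and 560 for +R, and 682 and 635 for R+LE. The -R libraries were highest, yet the value for +R against -R was -0.32 ± 0.201 (adjusted p = 0.211).

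Among the 7 genes for severing, depolymerizing and coronin proteins, *Dstn* rose and *Coro1a* fell with RANKL. *Dstn* encodes destrin, a relative of cofilin, and measured 42.4 and 44.6 RPKM for -R, 81.7 and 67.3 for +R, and 73.9 and 55.7 for R+LE. All 4 RANKL-treated libraries were above -R. *Dstn* rose by 0.76 ± 0.166 in +R against -R (adjusted p = 0.00153) and by 0.56 ± 0.166 in R+LE against -R (adjusted p = 0.0172). The latter call was lost without -R replicate 1 (0.52, adjusted p = 0.152), -R replicate 2 (0.59, adjusted p = 0.0999) or R+LE replicate 1 (0.35, adjusted p = 0.0939). *Cfl1*, the main cofilin, measured 1153 and 1121 RPKM for -R, 1051 and 911 for +R, and 1152 and 872 for R+LE. The -R and R+LE libraries overlapped, and *Cfl1* was not called (-0.22 ± 0.207 in +R against -R, adjusted p = 0.418). The ratio of *Dstn* to *Cfl1* was 0.0368 and 0.0398 in -R and 0.0638 to 0.0777 in the RANKL-treated libraries.

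*Coro1a*, which encodes the coronin of blood cells, fell in +R against -R (-0.50 ± 0.176, adjusted p = 0.0305), and its value in R+LE against +R was 0.41 ± 0.176 (adjusted p = 0.164). The first call was lost when any -R or +R library was left out (-0.34 to -0.66, adjusted p between 0.0567 and 0.319) and when *Rn45s* was left out of the depth (-0.44, adjusted p = 0.0503). *Coro1c* fell in R+LE against -R (-0.45 ± 0.152, adjusted p = 0.0344), a call that was lost on leaving out any library but R+LE replicate 1 (-0.34 to -0.48, adjusted p between 0.0558 and 0.196), with *Rn45s* left out of the depth (-0.37, adjusted p = 0.0648) and with the compared groups alone (adjusted p = 0.0539). *Gsn*, which encodes the severing protein gelsolin, *Coro1b* and *Cfl2* were not called in any comparison.

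Of the 4 capping genes, *Capza2*, which encodes a capping protein α subunit, fell in +R against -R (-0.48 ± 0.172, adjusted p = 0.034). The call was lost without -R replicate 1 (-0.48, adjusted p = 0.172), -R replicate 2 (-0.48, adjusted p = 0.165) or +R replicate 2 (-0.34, adjusted p = 0.281), and with *Rn45s* left out of the depth (-0.42, adjusted p = 0.0548). The other α subunit gene, *Capza1*, had -0.08 ± 0.16 in this comparison, but 60.9% of its sequence windows occur in other genes, mainly *Gm3608*. *Capzb* and *Capg* were not called, and *Capg*, which encodes a macrophage capping protein, remained among the more abundant genes at 462 to 730 RPKM.

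Of the 4 crosslinking and bundling genes, *Actn1*, which encodes α-actinin 1, rose in both RANKL-treated groups against -R. It measured 76.9 and 76.1 RPKM for -R, 102 and 101 for +R, and 107 and 102 for R+LE, so both RANKL-treated groups were above -R. The log2 fold change was 0.40 ± 0.143 in +R against -R (adjusted p = 0.0316) and 0.45 ± 0.143 in R+LE against -R (adjusted p = 0.0253). The first call was lost when any -R or +R library was left out (0.40 to 0.41, adjusted p between 0.147 and 0.173), and the second without any -R or +R library (0.44 to 0.45, adjusted p between 0.0548 and 0.147). The call of *Actn1* in R+LE against -R was also lost with the compared groups alone. *Actn4* and *Flna*, which encode α-actinin 4 and filamin A, were not called. *Fscn1* fell in R+LE against -R (-0.66 ± 0.227, adjusted p = 0.0353), from 0.959 and 1.37 RPKM to 0.560 and 0.531. The call was lost on leaving out any -R or R+LE library (-0.48 to -0.84, adjusted p between 0.056 and 0.246). On simulated data the test made more false calls than its threshold allows among genes of such low RPKM, which also applies to the shares of all genes given above.

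The 4 genes that link actin to adhesions or the membrane held 3 of the calls with RANKL, 1 up and 2 down. The 4 nucleation and elongation factors held the same numbers, and of all genes 23.9% rose and 21.5% fell. *Vcl* (mm10 chr14:20929398-21033676, plus strand) encodes vinculin, which ties integrin adhesions to actin, and measured 9.42 and 10.3 RPKM for -R, 23.6 and 20.3 for +R, and 14.1 and 12.4 for R+LE. The 3 groups did not overlap, with R+LE between the others. *Vcl* rose by 1.11 ± 0.142 in +R against -R (adjusted p = 1.29e-05) and fell by 0.70 ± 0.142 in R+LE against +R (adjusted p = 0.00374), and both calls held under all 18 alternatives. It was higher in R+LE than in -R by 0.41 ± 0.142 (adjusted p = 0.0382), a call lost without -R replicate 1 (0.34, adjusted p = 0.222), -R replicate 2 (0.47, adjusted p = 0.0941) or R+LE replicate 1 (0.32, adjusted p = 0.145). The call of *Vcl* in R+LE against -R was also lost without the variance trend. The exons of *Vcl* overlap those of *Ap3m1* on the other strand by 2090 bases, and *Ap3m1* was not called in any comparison (-0.28 ± 0.153 in +R against -R). *Ap3m1* measured 18.4 to 27.0 RPKM over all libraries, and its -R values of 23.0 and 24.2 were above those of *Vcl*. Reads on the overlap, counted without strand, cannot be assigned to either gene. Their part in the levels and fold changes of *Vcl* was not tested. *Tln1*, which encodes the vinculin partner talin, was not called (0.07 ± 0.169 in +R against -R).

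*Ezr* and *Msn* encode ezrin and moesin, which tie filaments to the plasma membrane. *Ezr* (mm10 chr17:6738131-6782780, minus strand) measured 42.3 and 42.5 RPKM for -R, 21.3 and 17.2 for +R, and 23.3 and 20.5 for R+LE. Both -R libraries were above the rest, and +R and R+LE overlapped. *Ezr* fell by 1.13 ± 0.147 on the log2 scale in +R against -R (adjusted p = 1.56e-05) and by 0.94 ± 0.147 in R+LE against -R (adjusted p = 0.00014), under every alternative. With LE its value was 0.19 ± 0.147 (adjusted p = 0.522, 95% interval -0.13 to 0.50). *Msn* was more abundant and fell from 250 and 300 RPKM in -R to 188 and 155 in +R (-0.68 ± 0.173, adjusted p = 0.00471). That call was lost without -R replicate 2 (-0.55, adjusted p = 0.103) or +R replicate 2 (-0.55, adjusted p = 0.0807), and the fall of *Msn* in R+LE against -R (-0.67 ± 0.173, adjusted p = 0.00729) was lost without -R replicate 2 (-0.54, adjusted p = 0.136).

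The promoter windows of *Vcl* (GRCm38.p6, chr14:20929148-20929447, plus strand) and *Ezr* (chr17:6782731-6783030, minus strand) are shown because these genes passed 2-fold in opposite directions. Capitals mark a CArG box at position -227 from the start site in *Vcl* and the AP-1 motif TGACTCA at position -32 in *Ezr*. The search was for TGANTCA, in which N is any base, so it was wider than the AP-1 motif.
Vcl: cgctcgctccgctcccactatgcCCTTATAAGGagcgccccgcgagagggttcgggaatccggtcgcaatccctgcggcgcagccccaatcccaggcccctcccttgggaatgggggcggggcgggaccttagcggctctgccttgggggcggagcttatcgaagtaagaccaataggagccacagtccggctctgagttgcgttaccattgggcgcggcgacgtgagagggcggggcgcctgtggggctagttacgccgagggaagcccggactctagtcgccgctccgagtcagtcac
Ezr: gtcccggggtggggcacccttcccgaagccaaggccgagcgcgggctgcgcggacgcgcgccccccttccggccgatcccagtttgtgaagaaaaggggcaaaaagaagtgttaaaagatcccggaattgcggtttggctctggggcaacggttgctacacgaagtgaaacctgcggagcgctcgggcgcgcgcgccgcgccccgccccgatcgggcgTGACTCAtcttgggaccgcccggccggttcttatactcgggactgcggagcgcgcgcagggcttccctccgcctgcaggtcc
On both strands, TGANTCA was found in 2 of the 32 windows, those of *Actn4* (as TGAATCA) and *Ezr* (as TGACTCA), against 7.81% of all windows. A match describes the letters only and was not tested as a binding site.

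A wider list of 128 other actin genes was also examined, and 91 of them passed the filter. Of the 91, 20 rose and 32 fell in +R against -R, where 23.9% of all genes rose and 21.5% fell. With LE added, 4 rose and 7 fell, against 5.19% and 6.86% of all genes, and 17 rose and 30 fell in R+LE against -R, against 15.3% and 19%. Whether the list differs from the core genes was not tested. *Scin*, which encodes the severing protein scinderin, measured 3.69 and 3.31 RPKM for -R, 29.8 and 27.5 for +R, and 6.19 and 4.45 for R+LE. The groups did not overlap, and *Scin* rose with RANKL (2.87 ± 0.157, adjusted p = 1.15e-09) and fell with LE (-2.34 ± 0.157, adjusted p = 2.54e-07). *Cttn*, which encodes the Arp2/3-binding protein cortactin, also rose with RANKL (2.12 ± 0.171) and fell with LE (-1.43 ± 0.171, adjusted p = 4.52e-05). These were the 2 listed genes that passed 2-fold with LE.

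*Tpm1*, which encodes a tropomyosin, rose with RANKL by 1.42 ± 0.158, and with LE had -0.25 ± 0.158 (adjusted p = 0.402). *Nckap1*, which encodes a subunit of the WAVE complex, rose with RANKL (1.25 ± 0.193, adjusted p = 7.99e-05) and fell with LE (-0.63 ± 0.193, adjusted p = 0.0445). In the other direction, *Marcks*, which encodes a membrane-bound actin crosslinker, fell with RANKL (-2.03 ± 0.156, adjusted p = 5.03e-08). *Coro2a*, a coronin gene, fell with RANKL (-1.77 ± 0.133) and rose with LE (0.69 ± 0.133, adjusted p = 0.00281). The formin gene *Fmnl3* and *Cotl1*, which encodes coactosin-like protein, fell with RANKL by 1.40 ± 0.136 and 1.16 ± 0.167.

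**Figure D5:**
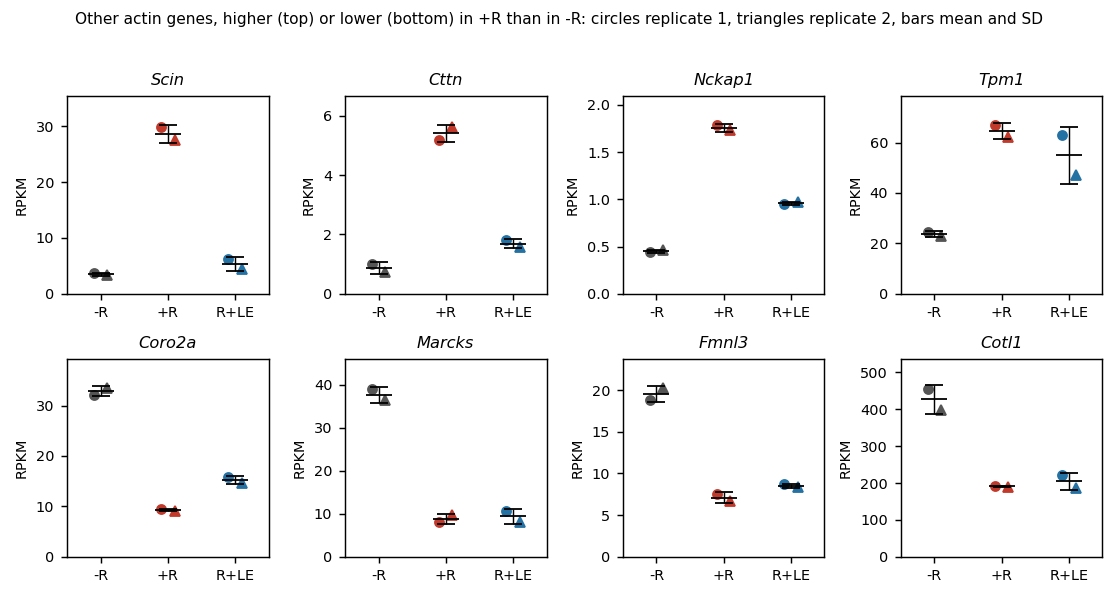
RPKM per library of 8 other actin genes, with those higher in +R than in -R in the top row and those lower in the bottom row, circles for replicate 1, triangles for replicate 2 and bars for mean and SD. In *Scin* and *Cttn* both R+LE libraries lie nearer to -R than to +R, whereas in *Tpm1* they lie nearer to +R.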

How the data were processed

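BMMs were sequenced in 3 conditions with 2 libraries each, grouped by the condition in the sample labels. The authors aligned reads to mm10 (TopHat in the methods, HISAT2 in the submitters' processing notes, which also name DESeq2), counted reads on exons without strand with HOMER, and deposited RPKM values under column titles that say FPKM. Versions are not given in the sources used here. Of the gene symbols, 26 turned into dates were restored.

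RPKM values are not counts, so log2(RPKM + 0.5) was tested with limma 3.58.1 in R 4.3.3, with all 3 groups together, a variance trend, a filter of a mean of 0.5 RPKM and Benjamini-Hochberg adjustment. An exact permutation test of 2 against 2 cannot go below p = 0.333. Whole reads, recovered from RPKM and transcript length in at least 99.99% of values checked (within 0.1 read), gave the depth. Shared sequence was found with 100-base windows of GENCODE transcripts, and promoters came from RefSeq. Python 3.11.15, numpy 2.4.6, pandas 2.3.3 and matplotlib 3.10.9 were used.

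Tested on simulated data with the spread of the real replicates, the fit recovered the direction and size of known changes. The criterion on false calls was then set for genes at the levels of most members, where it was met, after it had failed over all genes because of genes below 5 RPKM. Of the 38 members, *Fscn1* and *Cfl2* lie below that level. In the simulation each gene varied on its own. False calls under shifts shared by many genes of a library, such as those between the replicates here, were therefore not tested.

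The members and lists were chosen with earlier results of these data known. Full statistics are given for *Actb*, for called members and for the largest rise and fall, and other members by ranges and counts. Levels per library of *Cap1*, *Vasp*, *Dstn*, *Actn1*, *Msn* and *Fscn1*, and values of uncalled partners, were added after values were seen.

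Other settings tried were a pseudocount of 0.1 or 1, dropping the filter or raising it to 1 RPKM, median centring, quantile normalization, trimmed mean scaling, *Rn45s* excluded from the depth, limma without the trend or with the 2 compared groups alone, a replicate block, voom on recovered reads, and omission of each library. Items withheld for evaluation are not reported here.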

Additional observations from a re-analysis of the deposited data

How the results depend on the processing

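Over 18 alternatives and 30 results on single genes, 10 stayed on their side of the threshold throughout, 18 lost the call under at least 1, 2 gained one, and 1 reversed: *Tmsb4x* in +R against -R, at 0.14 under quantile normalization. The cause was not tested. The number of core genes lower in +R than in -R was 9, and it was 5 without the filter, 18 under quantile normalization, 16 under trimmed mean scaling and 3 to 12 with 1 library left out. The number higher was 4, and 2 to 4 with 1 library left out. In R+LE against +R, 0 were higher, but 1 with a mean of at least 1 RPKM, 1 with *Rn45s* left out of the depth, 1 with voom, 2 centred on the median, 2 under trimmed mean scaling, 3 under quantile normalization and 0 to 2 with 1 library left out. The number lower was 1, but 2 under quantile normalization and 1 to 3 with 1 library left out. In R+LE against -R, 3 were higher, but 1 without the filter and 0 to 4 with 1 library left out. There 9 were lower, but 4 without the filter, 16 under quantile normalization, 14 under trimmed mean scaling, 14 with voom and 2 to 15 with 1 library left out. Without the filter 18427 genes were tested. The share of all genes called moved with the setting as well. In +R against -R, 21.5% of all genes were lower in the main fit and 13.7% without the filter. It was 22.8% under quantile normalization and 24.6% under trimmed mean scaling. The share higher was 23.9% in the main fit and 13.1% without the filter. Shares for R+LE against -R under 3 settings are given above, and the other counts here stand without such shares. The median of the core genes in +R against -R moved from -0.26 to -0.14 without +R replicate 2.

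The replicate numbers were not taken to pair the samples, since no label says that they do and the correlations of their deviations over genes were -0.046 (-R and +R), 0.11 (-R and R+LE) and 0.25 (+R and R+LE). Pairing of +R with R+LE was not settled. With the replicate number as a block, 1 core gene, *Evl*, was higher in R+LE against +R, *Actr3* was also called lower in +R against -R, and in R+LE against -R *Vasp* was called higher and *Actb*, *Capza2* and *Capzb* lower. It ended no call on a core gene. With 1 library left out, the lone library of that group is assumed to vary like the others. Depth limits *Fscn1* most, at 42 reads.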
